A study of Mus musculus with 2 samples.

Results

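Gbp5, Iigp1, Irgm2 and Irf8 are 4 interferon-inducible genes, taken by name from the 2000 genes measured in splenic T cells of transplanted mice. They were chosen as 3 interferon-inducible GTPase genes and 1 interferon regulatory factor, and all 4 had a row for both treatments. They were read in CD4 and CD8 T cells, in dividing and non-dividing cells, and in cells with and without a transcript of Ifng, the gene for interferon-gamma.

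Interferon-gamma binds its receptor on T cells and other cells, and the signal reaches promoters through a palindromic element called GAS. Among the most strongly induced products in mouse cells are the guanylate-binding proteins and the immunity-related GTPases, which gather on the membranes of vacuoles that hold pathogens and help to disrupt them. Type I interferons act chiefly through another element, ISRE, and the target genes of both kinds of interferon overlap. IRF8 is a transcription factor known chiefly from myeloid and B cells. In mouse CD8 T cells it is also induced on activation and has been tied to effector differentiation.

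Recipients were WT BALB/C mice that received lethal irradiation and then, intravenously, spleen and bone marrow cells of WT C57BL/6 donors, so that donor T cells met a mismatched host. From day 0 to day 6 the recipients were given an antibody against IL-2, a T cell growth factor, or tacrolimus, which blocks calcineurin and with it NFAT activation below the T cell receptor. On day 6 spleen cells were profiled with a droplet-based 5′ single-cell RNA kit, and the labels describe them as donor T cells. The number of mice and the doses are not given in the sources used here. Each treatment had 1 library. Treatment and library therefore cannot be told apart, no difference was checked in replicates, and every interval is a 95% interval for counting error only.

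The files held 1551 anti-IL-2 and 1688 tacrolimus cells, and 4 barcodes occurred in both libraries. Cells with Cd4 and no Cd8a or Cd8b1 formed the CD4 gate, with 259 anti-IL-2 and 275 tacrolimus cells (median 9957 and 11409 UMIs). Cells with Cd8a or Cd8b1 and no Cd4 formed the CD8 gate, with 639 and 893 cells (median 14377 and 13823 UMIs). Dividing cells, in which at least 25% of 48 cell-cycle genes were detected, made up 19.3% of the CD4 gate under anti-IL-2 and 69.8% under tacrolimus, and 66.0% and 86.7% of the CD8 gate. Within 5 percentage points of that limit lay 13 and 19 CD4 cells, and 40 and 35 CD8 cells. The T cell label could be checked only through these gate genes, since 0 of 6 general T cell markers were measured. No doublet caller was run, and cells with both Cd4 and a Cd8 gene were not used.

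Markers of other cells were read in the same gates. Cells with 2 or more B, plasma, myeloid, dendritic or erythroid markers had been left out beforehand, Xbp1 not being used for that. Low sums of those lists were therefore partly set in advance. In the CD4 gate the 4 measured B cell markers summed to 0.0200 UMIs per 10000 under anti-IL-2 and 0.0196 under tacrolimus, with Ms4a1 at 0. The 7 myeloid markers summed to 1.44 and 1.84, nearly all Cst3, with Csf1r and Csf3r at 0. Class II genes (H2-Aa, H2-Ab1, H2-Eb1 and Cd74) summed to 0.488 and 0.477. In the CD8 gate the B cell, myeloid and class II sums were 0.0926, 2.72 and 0.101 under anti-IL-2 and 0.138, 2.56 and 0.0537 under tacrolimus. The 2 measured dendritic cell markers, Itgax and Batf3, summed to 0.0234 in CD4 cells (1.93% of cells) and 0.240 in CD8 cells (22.9%) under anti-IL-2, against 0.0617 (6.91%) and 0.585 (46.7%) under tacrolimus. Nearly all of that was Itgax, and 5 of 7 listed dendritic markers were not measured. The 4 plasma cell markers, nearly all Xbp1, summed to 0.498 in CD4 and 0.486 in CD8 cells under anti-IL-2, and to 0.746 and 0.754 under tacrolimus. IRF8 is also a factor of dendritic cells, and the part of such cells in its values was not tested. Pancreatic genes stood apart, since 10.4% of CD4 cells held such a UMI under anti-IL-2 and 69.8% did under tacrolimus, as did 7.20% and 74.1% of CD8 cells. Whether free RNA of this kind bears on the 4 genes was not tested, and there was no large class of cells known to lack them whose share could serve as a background.

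The 3 GTPase genes and Irf8 lie on different chromosomes (GRCm38). Gbp5 lies on chromosome 3 from 142493978 to 142522344, among other guanylate-binding protein genes. Irgm2 lies on chromosome 11 from 58199618 to 58222782 and shares 7974 bases with Igtp on the same strand, so reads from the shared stretch cannot be assigned with certainty. Irf8, on chromosome 8 from 120736358 to 120756694, lies within the gene model Gm20388 on the same strand, which leaves the same uncertainty. Iigp1 is given by name and values only. The RefSeq windows from 250 bases before to 50 after the start of Gbp5, Irgm2 and Irf8 are printed to show where GAS and ISRE motifs lie in them. Whether these motifs bear on the levels of the genes was not tested. The RefSeq start lies 2956 bases inside the gene span above for Gbp5 and 15359 bases inside it for Irgm2, and at its first base for the printed window of Irf8. Capitals mark GAAANNGAAA, a spaced pair of the repeats found in ISRE elements, and TTCNNNGAA, the core of a GAS element, both searched on both strands.

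Gbp5, GRCm38.p6, chr3:142496684-142496983, plus strand: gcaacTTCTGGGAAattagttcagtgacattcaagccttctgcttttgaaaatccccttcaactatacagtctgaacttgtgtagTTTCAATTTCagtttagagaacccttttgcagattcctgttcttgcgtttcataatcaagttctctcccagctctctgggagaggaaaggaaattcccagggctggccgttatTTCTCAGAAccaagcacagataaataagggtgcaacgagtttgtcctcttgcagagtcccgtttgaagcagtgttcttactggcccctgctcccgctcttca

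Irgm2, GRCm38.p6, chr11:58214727-58215026, plus strand: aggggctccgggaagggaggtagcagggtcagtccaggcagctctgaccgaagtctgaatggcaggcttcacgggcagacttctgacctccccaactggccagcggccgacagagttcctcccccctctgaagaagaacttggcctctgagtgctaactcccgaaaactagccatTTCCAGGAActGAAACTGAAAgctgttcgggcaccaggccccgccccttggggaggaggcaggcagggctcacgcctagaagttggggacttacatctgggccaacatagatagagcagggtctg

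Irf8, GRCm38.p6, chr8:120736108-120736407, plus strand: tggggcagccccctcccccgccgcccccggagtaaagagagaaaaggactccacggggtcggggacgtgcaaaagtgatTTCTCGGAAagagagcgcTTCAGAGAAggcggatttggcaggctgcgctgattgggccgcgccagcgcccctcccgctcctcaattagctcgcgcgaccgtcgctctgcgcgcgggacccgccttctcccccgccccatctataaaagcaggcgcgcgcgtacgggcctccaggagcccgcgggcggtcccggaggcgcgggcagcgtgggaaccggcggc

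The Gbp5 window held GAAANNGAAA on the reverse strand, starting 165 bases before the RefSeq start, and TTCNNNGAA 245 and 52 bases before it. In the Irgm2 window GAAANNGAAA started 64 bases and TTCNNNGAA 75 bases before the start, and the 2 motifs stood close together. The printed window of Irf8, 1 of 2 in the same table, held 2 TTCNNNGAA motifs, 171 and 153 bases before the start, and no GAAANNGAAA, and the other held neither. Over all 32851 windows, 3.44% held GAAANNGAAA and 8.3% held TTCNNNGAA. A match describes the letters and does not show that a factor binds there.

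The first comparison asked how the 4 genes differed between T cells under IL-2 blockade and under calcineurin inhibition. In CD4 cells the 3 GTPase genes were each detected in a larger share of anti-IL-2 than of tacrolimus cells, and Irf8 in a smaller share. In CD8 cells none of the 4 differed by 1.5-fold or more among genes present in at least 5% of cells. Shares are the percentage of cells with at least 1 UMI, and tacrolimus cells were thinned toward the anti-IL-2 depth within each gate. Thinning only lowers depth. In the CD8 gate tacrolimus cells were already the shallower ones in median (13823 and 14377 UMIs), so depth was not fully matched there.

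Gbp5, a guanylate-binding protein that in mouse macrophages promotes inflammasome assembly, had a UMI in 22 of 259 anti-IL-2 CD4 cells, or 8.49% (5.40 to 12.6%). The thinned tacrolimus share was 4.23% (2.18 to 7.33%), and the unthinned one 4.73%. The ratio of anti-IL-2 to tacrolimus was 2.01, but its counting interval of 0.945 to 4.50 includes equal shares. Its level was 0.0835 UMIs per 10000 under anti-IL-2 and 0.0421 under tacrolimus (ratio 1.99, 1.01 to 4.05).

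Iigp1, an effector immunity-related GTPase, was found in 7.34% of anti-IL-2 CD4 cells (4.47 to 11.2%) and 1.90% of thinned tacrolimus CD4 cells (0.640 to 4.31%). The ratio of 3.86 (1.42 to 12.8) was the largest among the 4 genes, and the counting intervals of both shares just failed to overlap. The level was 0.0902 UMIs per 10000 under anti-IL-2 and 0.0168 under tacrolimus, from 27 and 6 UMIs. When CD4 cells were taken from clusters and not from the Cd4 and Cd8 transcripts, the log2 ratio was 0.48, where it was 1.95 by transcripts.

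Irgm2, a regulatory immunity-related GTPase that controls the effector members of its family, was detected in 13.9% of anti-IL-2 (9.93 to 18.7%) and 8.33% of thinned tacrolimus CD4 cells (5.35 to 12.3%). The ratio was 1.67 (0.962 to 2.95), and levels were 0.137 and 0.0757 UMIs per 10000. Without thinning the log2 ratio of shares was 0.56, just under the 0.58 that corresponds to 1.5-fold.

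Irf8 went the other way in CD4 cells. It was found in 51 of 259 anti-IL-2 cells, or 19.7% (15 to 25.1%), and in 41.1% of thinned tacrolimus cells (35.3 to 47.2%). The ratio was 0.479 (0.337 to 0.672), with counting intervals far apart. The level differed less, at 0.368 UMIs per 10000 under anti-IL-2 and 0.578 under tacrolimus, a ratio of 0.636 (0.50 to 0.806). One anti-IL-2 cell held 18 of the 110 Irf8 UMIs in the gate, and without it the level was 0.310.

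These calls stand against a large background. Among 910 genes present in at least 5% of CD4 cells of either library, 12.4% were higher by 1.5-fold in anti-IL-2 cells and 40.2% were lower, with a median log2 ratio of −0.34. The 3 GTPase genes were thus in the less common direction for this gate, and Irf8 in the more common one.

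In CD8 cells the shares of each gene lay close together between treatments. Gbp5 was detected in 7.83% of anti-IL-2 and 5.23% of thinned tacrolimus cells, a ratio of 1.497 (0.984 to 2.28), just short of the 1.5-fold limit. Irgm2 was found in 8.45% and 6.88% (ratio 1.23, 0.837 to 1.80), and Irf8 in 47.0% and 51.5% (ratio 0.911, 0.785 to 1.06). Iigp1 was rare in both libraries, with 1.252% under anti-IL-2 (0.542 to 2.45%) and 1.65% under tacrolimus after thinning (0.923 to 2.72%). One tacrolimus CD8 cell held 9 of its 29 UMIs there. Of 933 genes in this gate, 8.68% were higher and 10.8% lower in anti-IL-2 cells. The CD8 direction of Iigp1 was not stable. Its log2 ratio of shares was −0.40 (−1.85 to 0.93), but 0.17 with the shift of the anti-IL-2 values left in and 0.45 with poorly fitted cells kept, and by UMIs per 10000 it was −1.39 (−2.66 to −0.28). Whether the treatments differed otherwise in CD8 than in CD4 cells was not tested.

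**Figure D1:**
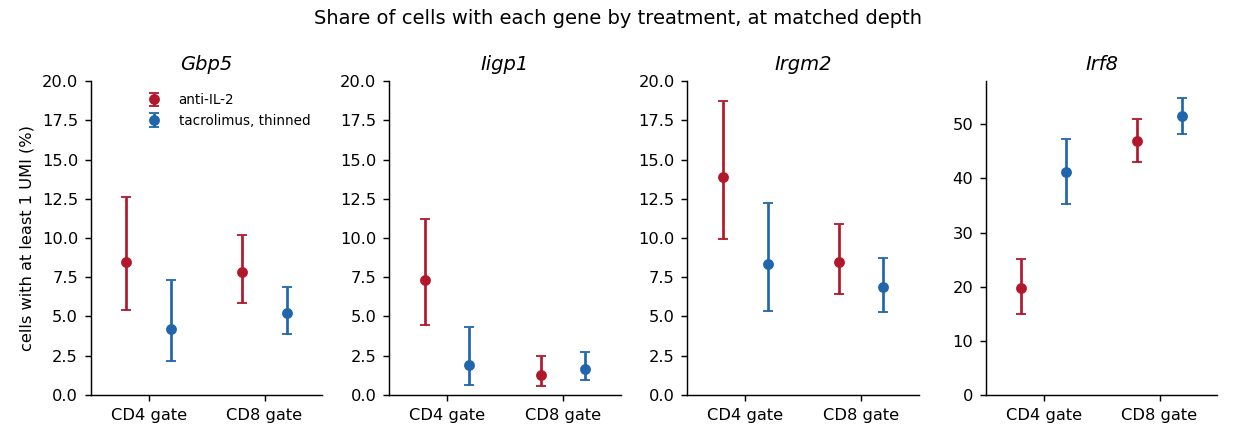
Percentage of cells with at least 1 UMI of each gene (vertical axis) in the CD4 and CD8 gates. Anti-IL-2 cells are red, and tacrolimus cells, thinned only where deeper than anti-IL-2 cells, are blue. Points are shares and bars are exact 95% binomial intervals for counting error. In the CD4 gate Irf8 was at 19.7% and 41.1%, and Iigp1 at 7.34% and 1.90%, in anti-IL-2 and tacrolimus cells, while in the CD8 gate the bars of each gene overlap.

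Since far fewer anti-IL-2 than tacrolimus CD4 cells were dividing, the treatments were compared again within non-dividing and within dividing cells, with both libraries thinned to a common depth. Among non-dividing CD4 cells (209 anti-IL-2 and 83 tacrolimus), Gbp5 was present in 8.98% of anti-IL-2 cells and 3.61% of tacrolimus cells (ratio 2.49, 0.730 to 13.1). Iigp1 was found in 7.43% of anti-IL-2 cells and in 0 of 83 tacrolimus cells. Set to a floor of 3 cells, the count of 0 would give a ratio of 2.06, which leaves out counting error. The exact upper limit of 0 of 83 cells was 4.35%. Irgm2 did not differ by the 1.5-fold rule, with 14.6% and 13.1% (ratio 1.11, 0.541 to 2.46). Irf8 was again lower, with 12.4% of anti-IL-2 cells and 31.1% of tacrolimus cells (ratio 0.40, 0.223 to 0.718). Of all genes in this comparison 14.2% were higher and 24.5% lower.

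Among dividing CD4 cells (50 anti-IL-2 and 192 tacrolimus) the difference in Irf8 was smaller, and the GTPase genes showed no excess in anti-IL-2 cells. Irf8 was found in 41.4% of anti-IL-2 cells and 50.5% of tacrolimus cells (ratio 0.819, 0.483 to 1.33). Gbp5 was found in 3.81% and 5.21%, Iigp1 in 2.74% and 3.13%. Irgm2 was lower by the rule, with 5.05% and 7.81%, but this rests on 3 anti-IL-2 cells and its interval ran from 0.0987 to 2.47. The background was 6.81% higher and 17.5% lower. Whether the treatments differed more in non-dividing than in dividing cells was not tested.

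Among CD8 cells 1 gene passed the limit after the same split. In non-dividing CD8 cells Gbp5 was detected in 6.68% of 217 cells under anti-IL-2 and 4.20% of 119 under tacrolimus (ratio 1.59, 0.545 to 5.62), where 14.2% of all genes were higher and 23.3% lower. Irf8 was found in 23.7% and 33.6% of these cells (ratio 0.705, 0.457 to 1.09). In dividing CD8 cells, 422 and 774 in number, Irf8 was nearly equal at 52.1% and 53.9% (ratio 0.966, 0.817 to 1.14). The other 3 genes also stayed within the limit or under 5% there, against a background of 4.46% higher and 11.3% lower.

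Division state was then compared within each library, so that treatment did not vary. Dividing cells were deeper, with medians of 17958 UMIs in dividing and 9311 in non-dividing cells for anti-IL-2 CD4, 18347 and 11296 for anti-IL-2 CD8, 13390 and 8565 for tacrolimus CD4, and 14852 and 8297 for tacrolimus CD8 cells. Levels per 10000 UMIs are therefore given beside the shares. Irf8 was detected in a larger share of dividing than of non-dividing cells in both gates of both libraries. In anti-IL-2 CD4 cells it was found in 46.0% of dividing (31.8 to 60.7%) and 13.4% of non-dividing cells (9.09 to 18.8%). The level was 0.709 and 0.210 UMIs per 10000 (ratio 3.38, 2.27 to 5.07). That dividing level includes the cell with the most Irf8 UMIs in the gate, whose UMIs the interval counts as independent. In anti-IL-2 CD8 cells the shares were 56.6% and 28.1%, and the levels 0.615 and 0.444 (ratio 1.39, 1.13 to 1.72). Tacrolimus cells had shares of 50.5% in dividing and 31.3% in non-dividing CD4 cells, and of 54.5% and 33.6% in CD8 cells, with level ratios of 1.34 (0.922 to 2.0) and 1.38 (1.04 to 1.87).

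Shares were also compared at 1 depth. After every cell was thinned to 5000 UMIs, Irf8 was found in 21.1% of dividing and 8.10% of non-dividing anti-IL-2 CD4 cells, a ratio of 2.6 (1.08 to 5.99), where 43.8% of genes were higher. The other 3 ratios were below 1.5, at 1.43 in anti-IL-2 CD8, 1.35 in tacrolimus CD4 and 1.19 in tacrolimus CD8 cells. Before thinning, 54.5% and 52.9% of genes were higher in dividing anti-IL-2 CD4 and CD8 cells, and 52.6% and 62.4% in tacrolimus cells. A higher share in dividing cells was thus shared by the majority of genes, and Irf8 was one of them.

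The GTPase genes followed the reverse pattern in anti-IL-2 CD4 cells. Gbp5 was detected in 4.0% of dividing and 9.57% of non-dividing cells, Iigp1 in 4.0% and 8.13%, and Irgm2 in 6.0% and 15.8%, although dividing cells were deeper. Levels per 10000 UMIs in dividing cells were 0.189 (0.0215 to 0.763), 0.173 (0.0199 to 0.695) and 0.171 (0.0338 to 0.539) times those of non-dividing cells. These ratios rest on 2, 2 and 3 dividing cells with a transcript. Of all genes, 9.41% were lower in dividing cells of this class.

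Elsewhere fewer of these ratios passed the rule. In tacrolimus CD4 cells Irgm2 was detected in 7.81% of dividing and 13.3% of non-dividing cells, with 0.0567 and 0.147 UMIs per 10000 (ratio 0.385, 0.168 to 0.917), where 5.84% of genes were lower. When dividing cells were defined by 15% of the cell-cycle genes, that log2 ratio of shares changed sign, to 0.20. Iigp1 went the other way from anti-IL-2 CD4 cells. The 6 tacrolimus CD4 cells that held it were among the 192 dividing ones, and 0 of 83 non-dividing cells did. Both shares were under the 5% minimum. In CD8 cells no GTPase gene passed the rule on shares in either library, against 5.83% of genes lower under anti-IL-2 and 2.22% under tacrolimus. In anti-IL-2 CD8 cells levels of Gbp5 were still lower in dividing cells, with 0.0366 and 0.0807 UMIs per 10000 (ratio 0.454, 0.252 to 0.837), and those of Irgm2 likewise, with 0.0423 and 0.0807 (ratio 0.525, 0.297 to 0.954).

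Dividing cells were further split into G1/S and G2/M cells by which gene list was more detected. Irf8 reached its highest level in G1/S cells in all 4 combinations of gate and library. In anti-IL-2 CD4 cells it was 0.210 UMIs per 10000 in non-dividing, 1.21 in G1/S and 0.319 in G2/M cells. The G1/S value rests on 21 cells, of which the cell with 18 UMIs is one, and it was 0.832 without that cell. In anti-IL-2 CD8 cells the levels were 0.444, 0.668 and 0.581, and in tacrolimus CD8 cells 0.499, 0.778 and 0.628. In tacrolimus CD4 cells they were 0.456, 0.710 and 0.548. Shares of cells with Irf8 in G2/M and G1/S differed by less than 1.5-fold in each of the 4 combinations, the ratios lying between 0.790 and 0.935.

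Ordered by level, anti-IL-2 CD4 G1/S cells came first for Irf8 and non-dividing anti-IL-2 CD4 cells last. Between them lay tacrolimus CD8 and CD4 G1/S cells and anti-IL-2 CD8 G1/S cells, whose intervals of 0.703 to 0.858, 0.560 to 0.889 and 0.584 to 0.760 overlap. The G2/M cells of these 3 classes lay below them, between 0.548 and 0.628, and also overlapped among themselves. The interval of the lowest class, 0.152 to 0.283, lay below that of non-dividing tacrolimus CD4 cells, 0.316 to 0.637, and overlapped that of G2/M anti-IL-2 CD4 cells, 0.186 to 0.511.

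Gbp5 differed between the G1/S and G2/M cells of the tacrolimus library. It was detected in 7.13% of G2/M (4.96 to 9.86%) and 2.89% of G1/S cells (1.33 to 5.42%) in the CD8 gate, a ratio of 2.46 (1.15 to 5.85), and in 7.02% and 2.56% in the CD4 gate (ratio 2.74, 0.546 to 26.5). In anti-IL-2 CD8 cells its shares were 6.10% and 8.52% (ratio 0.715, 0.326 to 1.57), where 9.14% of genes were lower in G2/M cells. Of all genes 9.88% were higher in G2/M cells in tacrolimus CD8, and 18% in tacrolimus CD4 cells. Compared by treatment at matched depth, G1/S CD8 cells with Gbp5 made up 7.41% under anti-IL-2 and 2.87% under tacrolimus (ratio 2.58, 1.02 to 6.87), where 7.35% of genes were higher. Among CD4 cells in G1/S, where 9.91% of genes were higher and 19.9% lower under anti-IL-2, and in G2/M, where 7.76% were higher and 19.7% lower, Irf8 stayed within 1.5-fold between treatments. Irgm2 stayed within 1.5-fold between these states in each gate and library. Iigp1 was detected in 4 or fewer of the G1/S or G2/M cells of each CD4 class, and in 6 or fewer of those of each CD8 class.

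**Figure D2:**
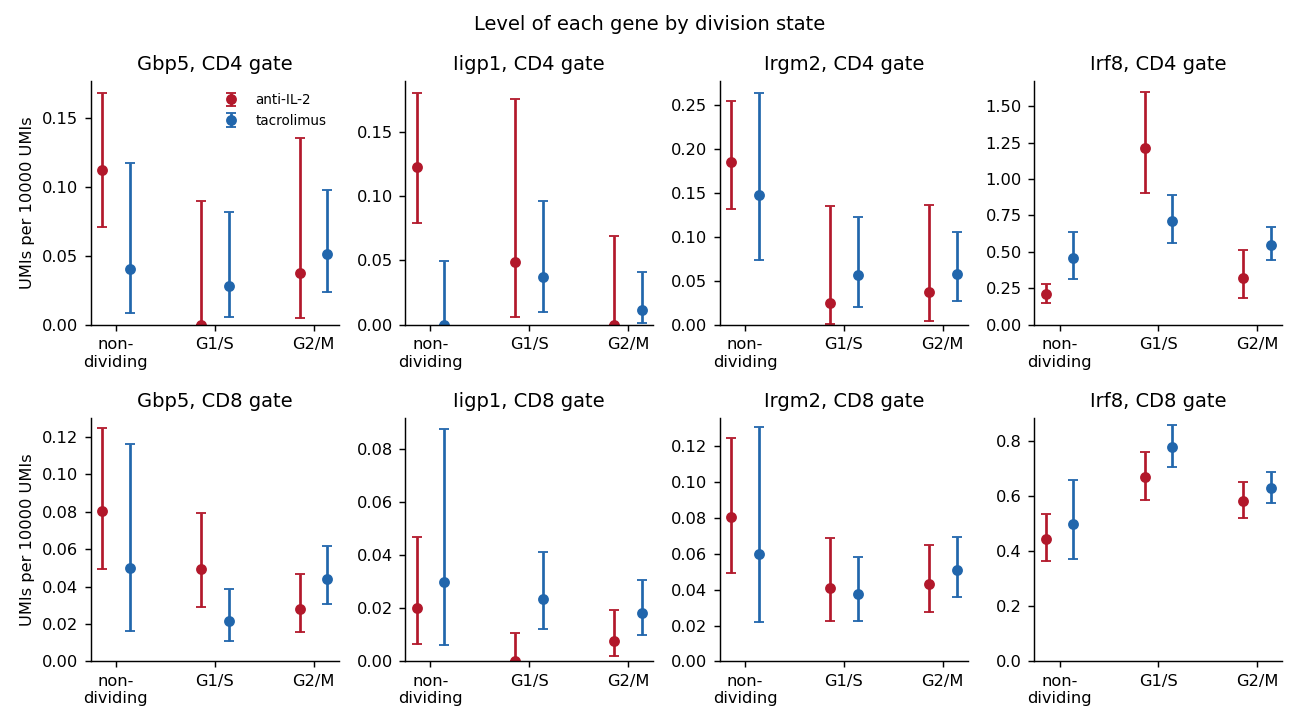
Level of each gene in UMIs per 10000 UMIs (vertical axis, a different scale in each panel) in non-dividing, G1/S and G2/M cells of the CD4 gate (top) and the CD8 gate (bottom), for anti-IL-2 (red) and tacrolimus (blue). Bars are exact 95% Poisson intervals for counting error. Irf8 peaks in G1/S cells in both gates, at 1.21 and 0.710 in the CD4 gate, while GTPase genes in anti-IL-2 CD4 cells are highest in non-dividing cells, such as 0.112 for Gbp5.

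Within the anti-IL-2 library the CD8 and CD4 gates differed in 3 of the 4 genes. Irf8 was detected in 47.0% of CD8 and 19.7% of CD4 cells (ratio 2.38, 1.77 to 3.28), where 45.7% of genes were higher in CD8 cells. Division differed too, since 66.0% of CD8 and 19.3% of CD4 cells were dividing. Within dividing cells Irf8 had shares of 56.6% in CD8 and 46.0% in CD4 cells and levels of 0.615 and 0.709 UMIs per 10000. The CD4 level includes the cell with the most Irf8 UMIs in that gate, so the order of these levels may rest on it. Within non-dividing cells the shares were 28.1% and 13.4%, and the levels 0.444 and 0.210. After thinning to 5000 UMIs the shares were 22.2% and 10.6%, a ratio of 2.09 (1.38 to 3.29), with 36.7% of genes higher. Iigp1 was found in 1.252% of CD8 and 7.34% of CD4 cells (ratio 0.171, 0.0646 to 0.408) and Irgm2 in 8.45% and 13.9% (ratio 0.608, 0.392 to 0.954), where 10.9% of genes were lower in CD8 cells. Shares of Gbp5 were close at 7.83% and 8.49%, but its level was 0.0463 UMIs per 10000 in CD8 and 0.0835 in CD4 cells, a ratio of 0.555 (0.338 to 0.933). In the tacrolimus library none of the 4 passed the rule, Irf8 being found in 51.7% of CD8 and 44.7% of CD4 cells, with 13.3% of genes higher and 8.59% lower.

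Next, cells with and without an Ifng transcript were compared in the same gate and library, which asks whether the transcript of interferon-gamma and those it induces were found in the same cells. Ifng-detected cells were deeper, with medians of 12508 UMIs in Ifng-detected and 9668 in Ifng-undetected cells for anti-IL-2 CD4, 18420 and 13061 for anti-IL-2 CD8, 13500 and 10982 for tacrolimus CD4, and 16037 and 12790 for tacrolimus CD8 cells. Ifng was detected in 13.5% of CD4 cells under anti-IL-2 and 28.0% under tacrolimus, and in 32.6% and 32.0% of CD8 cells. Before any matching of depth, Irf8 was detected more often in Ifng-detected cells in both gates of both libraries, and the GTPase genes showed no common direction.

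The widest gap for Irf8 was in anti-IL-2 CD4 cells, where it was detected in 16 of 35 Ifng-detected cells, or 45.7% (28.8 to 63.4%), and in 15.6% of 224 Ifng-undetected cells (11.1 to 21.1%). The ratio was 2.93 (1.51 to 5.43), and levels were 0.986 and 0.229 UMIs per 10000. This was the only one of the 4 combinations past 1.5-fold, and 41.8% of genes were also higher in Ifng-detected cells there. After thinning to 5000 UMIs the shares were 23.4% and 8.70%, where 33.2% of genes were higher and 13% lower. Within dividing cells of this class the unthinned shares were 64.7% of 17 and 36.4% of 33 cells (ratio 1.78, 0.711 to 4.41). There 21.4% of genes were higher and 6.18% lower. Within non-dividing cells the shares were 27.8% of 18 and 12% of 191 (ratio 2.31, 0.685 to 6.20), where 26.6% of genes were higher and 15% lower.

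In the other classes the gap was smaller. In anti-IL-2 CD8 cells Irf8 was found in 58.2% of Ifng-detected and 41.5% of Ifng-undetected cells (ratio 1.40, 1.10 to 1.77), with levels of 0.729 and 0.477 UMIs per 10000. Of the 208 Ifng-detected cells 39 were non-dividing, as were 178 of the 431 Ifng-undetected cells. Within non-dividing cells the shares were 46.2% and 24.2% (ratio 1.91, 1.04 to 3.38), where 19.4% of genes were higher, and within dividing cells 61% and 53.8% (ratio 1.13, 0.869 to 1.48). The 2 states were not tested against each other. In tacrolimus CD8 cells the shares were 62.9% and 46.5% (ratio 1.36, 1.12 to 1.64), and in tacrolimus CD4 cells 55.8% and 40.4% (ratio 1.38, 0.931 to 2.03). Among non-dividing tacrolimus CD4 cells the order was the other way, with 4 of 16 Ifng-detected cells, or 25%, and 32.8% of 67 Ifng-undetected cells.

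For Gbp5 and Irgm2 in the CD4 gate the 2 libraries gave opposite directions, a difference that was not tested. Gbp5 was detected in 0 of 35 Ifng-detected anti-IL-2 cells, with an exact upper limit of 10.0%. It was detected in 9.82% of Ifng-undetected cells (6.26 to 14.5%), a share below that limit. In tacrolimus cells it was detected in 6.49% and 4.04% (ratio 1.61, 0.414 to 5.57). Irgm2 was detected in 2 of 35 Ifng-detected anti-IL-2 cells, or 5.71%, and 15.2% of Ifng-undetected cells (ratio 0.376, 0.0438 to 1.47), but in 14.3% and 7.58% of tacrolimus cells (ratio 1.89, 0.783 to 4.39). Iigp1 was detected in 2 of 35 Ifng-detected anti-IL-2 cells, or 5.71%, and 7.59% of Ifng-undetected cells (ratio 0.753, 0.0844 to 3.17), and in 1.30% and 2.53% of tacrolimus cells. The printed intervals of these ratios include 1. In the background 7.36% of genes were lower in Ifng-detected anti-IL-2 CD4 cells, and 23.6% were higher in Ifng-detected tacrolimus CD4 cells.

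In CD8 cells the GTPase shares of Ifng-detected and Ifng-undetected cells lay within 1.5-fold or under the 5% minimum. Gbp5 was found in 9.13% and 7.19% of anti-IL-2 cells and in 6.29% and 4.78% of tacrolimus cells. Irgm2 was found in 7.21% and 9.05% of anti-IL-2 cells and in 7.69% and 6.59% of tacrolimus cells. Iigp1 was under the minimum, with 1.44% and 1.16% of anti-IL-2 cells and 0.699% and 2.14% of tacrolimus cells. Of 920 and 908 genes, 27.3% were higher and 3.15% lower in Ifng-detected cells under anti-IL-2, and 11.1% were higher under tacrolimus.

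**Figure D3:**
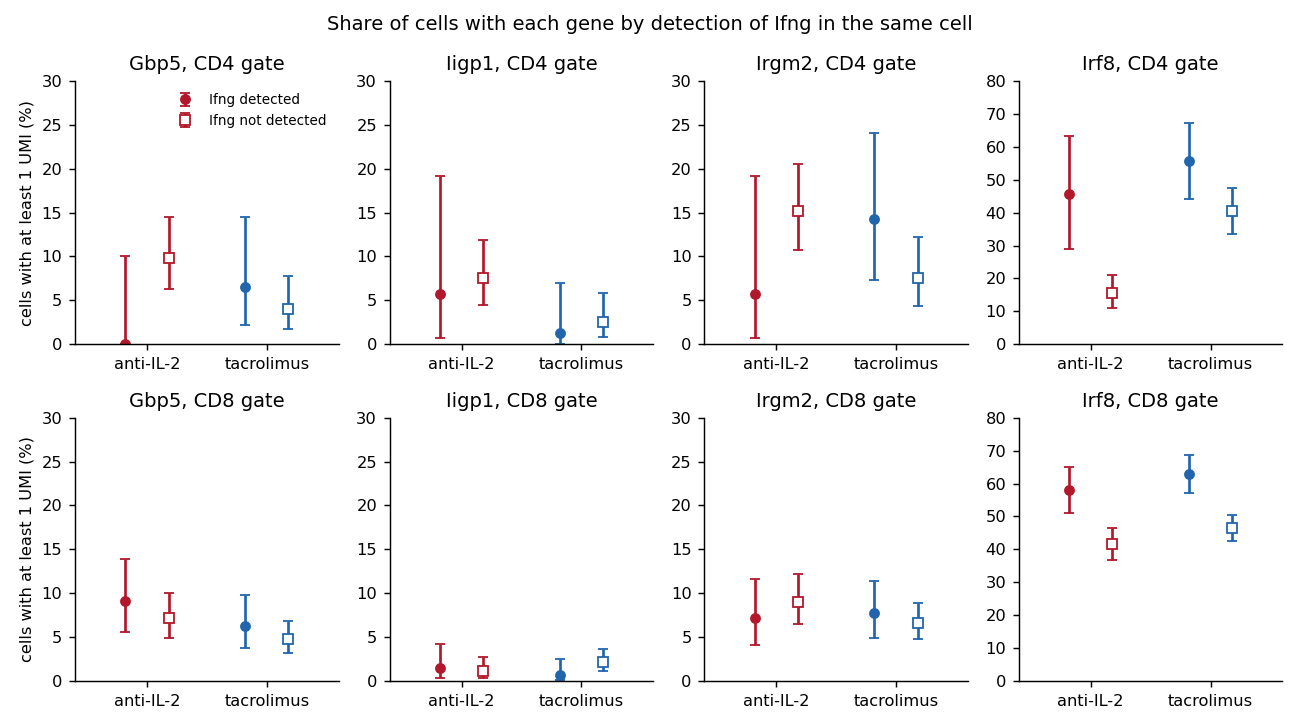
Percentage of cells with at least 1 UMI of each gene (vertical axis) in cells with Ifng detected (filled circles) and not detected (open squares), in the CD4 gate (top) and the CD8 gate (bottom), for anti-IL-2 (red) and tacrolimus (blue). Bars are exact 95% binomial intervals for counting error. Shares are not matched for depth. Irf8 is higher in Ifng-detected cells in all 4 combinations, with the widest gap, 45.7% and 15.6%, in anti-IL-2 CD4 cells.

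The 3 GTPase genes were seen mostly as single UMIs and seldom together in a cell. Of cells with Gbp5, 19 of 22 anti-IL-2 CD4, 48 of 50 anti-IL-2 CD8, 11 of 13 tacrolimus CD4 and 44 of 47 tacrolimus CD8 cells held 1 UMI. Irf8 was found with over 1 UMI in 22 of 51, 165 of 300, 47 of 123 and 223 of 462 of its cells in the same order. At least 1 was detected in 24.3% of anti-IL-2 and 16.0% of tacrolimus CD4 cells (unthinned), and in 16.0% and 12.5% of CD8 cells. Only 2 anti-IL-2 CD4 cells and 1 anti-IL-2 CD8 cell held all 3, and 0 tacrolimus cells did. Irgm2 was found in 9 of 22 anti-IL-2 CD4 cells with Gbp5, or 40.9% (20.7 to 63.7%), and in 11.4% of those without (7.64 to 16.1%). The same pair in CD8 cells had 16.0% and 7.81% under anti-IL-2 and 17.0% and 6.38% under tacrolimus, but 7.69% and 9.54% in tacrolimus CD4 cells. Irf8 was about as frequent in cells with a GTPase transcript as in those without, with 15.9% and 20.9% in anti-IL-2 CD4, 48.0% and 46.7% in anti-IL-2 CD8, 47.7% and 44.2% in tacrolimus CD4 and 58% and 50.8% in tacrolimus CD8 cells. In cells with and without a class II transcript, which antigen-presenting cells carry, Irf8 was found at close shares in the CD4 gate, with 22.2% and 19.0% under anti-IL-2 and 44.2% and 44.8% under tacrolimus. In anti-IL-2 CD8 cells the shares were 50.0% and 46.7%. In tacrolimus CD8 cells it was found in 66.1% and 50.7%.

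The genes whose detection was most like that of each of the 4 were ranked by the phi coefficient over 898 anti-IL-2 and 1168 tacrolimus gated cells. The coefficients are weak, they pool gates and depths, and the recovery of anti-IL-2 detections used neighbouring cells, so they describe these cells only. For Irgm2 in anti-IL-2 cells the 5 nearest genes were Ifit3, Ifit3b, Ifit1, Rtp4 and Oasl2, all antiviral genes of the type I interferon response, with phi from 0.155 to 0.264. Ifit3 was detected in 33.3% of cells with Irgm2 and 7.18% of those without. In tacrolimus cells Ifit1 and Rtp4 again came first for Irgm2 (phi 0.137 and 0.131). The nearest gene to Gbp5 in anti-IL-2 cells was Irgm2 (phi 0.134) and to Iigp1 it was Tgtp1, another immunity-related GTPase (phi 0.236), whereas the first for tacrolimus cells were Nek2 and Gm10260. For Irf8 in anti-IL-2 cells all 5 nearest genes act in DNA replication or nucleotide supply (Mcm5, Rrm2, Tk1, Rfc4 and Lig1, phi 0.349 to 0.371). In tacrolimus cells Irf8 was nearest to Rgs16, a regulator of G protein signalling, with phi 0.224.

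The remaining interferon genes were read in the same way, from lists by role. Of 18 further interferon-inducible GTPase genes 10 were measured, and 8 reached 5% in the CD4 gate. There Tgtp1, Tgtp2 and Mx1 were higher in anti-IL-2 cells, Gbp3 was lower, and Gbp2, Gbp4, Igtp and Ifi47 were neither. The list's median log2 ratio was 0.25, against −0.34 for all genes, of which 12.4% were higher and 40.2% lower. In non-dividing CD4 cells at matched depth 2 of 8 were higher and 1 lower, where 14.2% and 24.5% of all genes were, Mx1 being within the limit, and the median was −0.04 against −0.08. Tgtp2 was detected in 24.3% of anti-IL-2 and 9.48% of thinned tacrolimus CD4 cells (ratio 2.57, 1.6 to 4.22), though Tgtp1 and Tgtp2 are near-identical copies whose reads may be split. Gbp3, a neighbour of Gbp5 on chromosome 3, was found in 17.8% and 29.4% (ratio 0.605, 0.412 to 0.880). In CD8 cells 1 of 7 such genes, Tgtp2, was higher and 0 were lower, with a median of 0.31 against −0.15 and 8.68% of all genes higher.

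Type I interferon genes, which overlap with the GTPase genes in their inducers, were counted next. Of 15 that reached 5% in the CD4 gate, 12 were higher in anti-IL-2 cells and 0 lower (median log2 ratio 2.08), where 12.4% of all genes were higher and 40.2% lower. Ifit1 was detected in 23.9% of anti-IL-2 and 4.63% of thinned tacrolimus CD4 cells (ratio 5.17, 2.80 to 10.3), and Oas1a, an oligoadenylate synthetase, in 46.3% and 10.0% (ratio 4.62, 3.03 to 7.26). In CD8 cells 8 of 13 were higher and 0 lower (median 0.91), against 8.68% and 10.8% of all genes. In non-dividing cells alone 9 of 15 were higher in the CD4 gate (median 0.88) and 6 of 14 in the CD8 gate (median 0.56), where 14.2% of all genes were higher in each.

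Genes that act on either side of interferon-gamma differed among themselves. Ifng was detected in 13.5% of anti-IL-2 and 25.8% of thinned tacrolimus CD4 cells (ratio 0.524, 0.339 to 0.796). The receptor chain gene Il12rb2, through which IL-12 drives Ifng, was detected in 19.3% and 48.2% of CD4 (ratio 0.401, 0.283 to 0.559) and 16.7% and 35.4% of CD8 cells (ratio 0.473, 0.376 to 0.591). On the signalling side, Socs1, a feedback inhibitor, was found in 49.4% of anti-IL-2 and 31.2% of thinned tacrolimus CD4 cells (ratio 1.58, 1.20 to 2.11). Among relatives and partners of Irf8, Irf7 was found in 60.6% of anti-IL-2 and 31.6% of tacrolimus CD4 cells (ratio 1.92, 1.47 to 2.52) and Id2 in 57.5% and 86.4% (ratio 0.666, 0.539 to 0.820), while Irf4 and Batf were within 1.5-fold. Of 3 other interferon-gamma targets at the minimum share, 1, the serpin gene Serpina3g, was higher (27.4% and 18.1% of CD4 cells, ratio 1.51) and 0 were lower, where 12.4% of all genes were higher. In the CD4 gate Irf8 was thus lower and Irf7 higher under anti-IL-2.

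**Figure D4:**
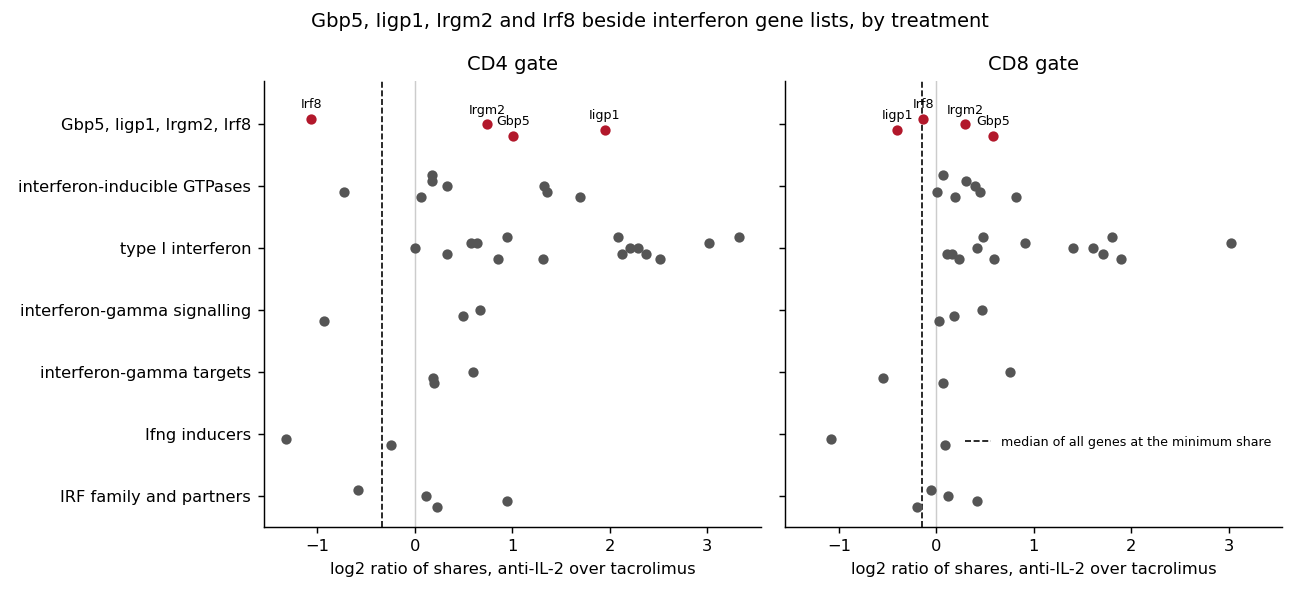
Log2 ratio of the share of cells, anti-IL-2 over tacrolimus (horizontal axis), in the CD4 gate (left) and the CD8 gate (right). Tacrolimus cells were thinned only where deeper than anti-IL-2 cells. Gbp5, Iigp1, Irgm2 and Irf8 are shown at any share (red, top row). Genes of 6 lists are shown where they reached 5% of cells (grey). The dashed line is the median of all genes at that minimum, −0.34 and −0.15, and points are spread vertically only to separate them. In the CD4 gate the 3 GTPase genes lie right of the line and Irf8 left of it.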

How the data were processed

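Single-cell RNA-seq of spleen T cells was analysed, 1 library for each of 2 treatments. Reads were processed with Cell Ranger 3.1.0 on mm10 and with Seurat, whose version was not named, per the submitters' processing notes. The choice of cells and of the 2000 genes is not described in the sources used here. The authors deposited natural log values. Tacrolimus values, at a scale of 50000 per cell, came out 100.0% whole UMIs (tolerance 0.001). Anti-IL-2 values were shifted, as in integrated data, with 13.9% below 0 and 42.0% exactly 0. The tacrolimus table repeated 308 anti-IL-2 columns unchanged, which were used once. 0 columns of values were left unused.

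For each anti-IL-2 cell a UMI total was fitted, with totals far from the line of totals on detected genes in tacrolimus cells penalised. The anti-IL-2 depth used in comparisons is thus partly borrowed from the other library. Each gene's shift was first estimated from 20 nearest cells, the cell itself included. It was then smoothed over all anti-IL-2 cells and removed. A residue above 0.5 of the level of 1 UMI was a detection. Where totals could be read directly from 2 or more values (187 cells), 95.7% of fitted totals lay within 1.25-fold. The procedure was also run on a simulated pair of libraries made from tacrolimus cells alone. The outcome is not reported here, and that run does not show that the anti-IL-2 UMIs were recovered correctly. The design had assumed counts, and the recovered UMIs took their place.

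Cells with at least 200 genes were kept (1245 anti-IL-2 and 1475 tacrolimus), except 94 and 5 called poorly fitted. These had a total over 3 SD from the line of totals on detected genes, above 60000 UMIs or, under anti-IL-2 only, a poor fit. Tacrolimus totals were read and not fitted. The cells left had medians of 12690 UMIs and 329 genes under anti-IL-2, and 13270 UMIs and 420 genes under tacrolimus. From these, 134 and 178 with 2 or more markers of another lineage were left out. Shares have exact Clopper-Pearson, levels exact Poisson and ratios exact conditional intervals. With 1 library a group no p-value was computed, and a gene was called higher or lower at 1.5-fold with a share of at least 5% in one class. Thinning was computed as an expected share. All 4 genes are named, as are genes of the fixed lists and the 5 genes nearest by phi among those in at least 2% of cells. The 4 genes and the lists were chosen with earlier results of these data known. Alternatives covered the shift, threshold, filters, gates and depth. Sequences and motifs came from RefSeq promoter windows (GRCm38.p6), in which Gbp5, Irgm2 and Irf8 were matched. Gene coordinates came from a GENCODE annotation of GRCm38. Python 3.11.15, numpy 2.4.6, scipy 1.17.1, pandas 2.3.3 and scikit-learn 1.9.0 were used.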

Additional observations from a re-analysis of the deposited data

Results flagged for a closer look

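For 5 results the log2 ratio of shares had opposite signs in the 2 treatments or the 2 gates, with at least 1 of the paired values past the 1.5-fold rule. None of these differences was tested, since there was 1 library per treatment. A comparison with a class at 0 gave no ratio and could not be flagged. This held for Iigp1 by division state in tacrolimus CD4 cells and for Gbp5 by Ifng detection in anti-IL-2 CD4 cells. Iigp1, anti-IL-2 over tacrolimus, had a log2 ratio of 1.95 in CD4 cells and −0.40 in CD8 cells, where it was under the 5% minimum and its sign changed under 2 alternatives. Gbp5, dividing over non-dividing CD4 cells, had −1.26 under anti-IL-2 and 0.53 under tacrolimus, with 2 anti-IL-2 and 10 tacrolimus dividing cells holding it. Gbp5, G2/M over G1/S CD8 cells, had −0.48 under anti-IL-2 and 1.30 under tacrolimus. Irgm2, dividing over non-dividing tacrolimus cells, had 0.52 in the CD8 and −0.76 in the CD4 gate, but −0.40 in the CD8 gate by UMIs per 10000. Irgm2, Ifng-detected over Ifng-undetected CD4 cells, had −1.41 under anti-IL-2 and 0.92 under tacrolimus, with 2 and 11 Ifng-detected cells holding it.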

How the results depend on the processing

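Of 281 values of the 4 genes under an alternative, 258 kept their sign, and 247 of those stayed within the counting interval of the reported value. The sign changed for 23, of which 4 had a reported value past the 1.5-fold rule and 19 did not. A further 9 alternatives gave no value because a class was at 0, as did 2 results as reported. Among those 19, Iigp1 in CD8 cells came to 0.17 with the shift left in and 0.45 with poorly fitted cells kept. Values below are log2 ratios unless called counts. In dividing cells alone, a choice made after seeing the data, the CD4 differences between treatments reversed for Gbp5 (−0.45), Iigp1 (−0.19) and Irgm2 (−0.63). Irf8 came to −0.29, and 1 gene passed the limit where 4 had. Of all genes 6.81% were higher and 17.5% lower there, against 12.4% and 40.2% as reported. With CD4 cells from clusters Iigp1 came to 0.48 and 2 genes passed, as 2 did when the repeated columns were counted as tacrolimus. In CD8 cells 0 genes passed as reported, where 8.68% of all genes were higher and 10.8% lower. The count was 1 with the shift left in, at a detection threshold of 0.25, with no minimum of genes, with poorly fitted cells kept and in non-dividing cells alone (Irf8 −0.50 there). It was 2 with directly read totals (Gbp5 1.28, Irgm2 −0.59). Between division states, Irf8 in anti-IL-2 CD8 cells came to 0.47 by UMIs per 10000 and 0.51 at 5000 UMIs, and the count of 8 dropped to 4 at 5000 UMIs. Over the gates and libraries, 52.6 to 62.4% of all genes were higher and 2.22 to 9.41% lower in dividing cells before thinning. At 5000 UMIs the ranges were 41.6 to 44.5% and 11 to 18.5%. Irgm2 in tacrolimus CD4 cells reversed to 0.20 with dividing cells defined at 15%. Between gates, Irf8 in anti-IL-2 cells came to 0.65 by UMIs per 10000, and the count of 3 became 5. By shares 45.7% of all genes were higher and 10.9% lower in CD8 cells under anti-IL-2, and 13.3% and 8.59% under tacrolimus. By Ifng detection the count of 4 became 8 by UMIs per 10000 and 2 with tacrolimus cells at 5000 UMIs. There 11.1 to 41.8% of all genes were higher and 1.21 to 7.36% lower by shares. In tacrolimus cells at 5000 UMIs 13.5% were higher in the CD4 and 4.58% in the CD8 gate. No share of all genes was computed by UMIs per 10000. Background calls, anti-IL-2 over tacrolimus, were 192 with no minimum share and 74 at 2-fold for higher in CD4 cells (113 as reported), 256 and 44 for higher in CD8 cells (81), and 228 and 49 for lower in CD8 cells (101). The cause of these changes was not tested.

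No paired analysis was possible because each treatment had 1 library, and leaving out a replicate was not possible for the same reason. A GTPase gene in 2 to 15% of cells is seen mostly through single UMIs, so a cell without a UMI is not shown to lack the transcript. Small classes limit precision, as in the 35 Ifng-detected anti-IL-2 CD4 cells, where the interval of Irf8 ran from 28.8 to 63.4%.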
